A study of Mus musculus with 45 samples.

Results

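Gata4, Gata5 and Gata6 encode the 3 GATA-type zinc finger transcription factors best known from heart and endoderm. They were followed here through a culture course from mouse embryonic stem cells (mESCs) toward spinal dorsal interneurons. They were chosen by name, as the rows of the authors' table of significant genes headed Gata4, Gata5 or Gata6, and make up 3 of its 11220 genes. Retinoic acid (RA) given together with BMP4 went with higher levels of all 3 genes than RA alone, and BMP4 added after RA went with a Gata5 level that was high on day 5 and low on days 7 and 9.

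The 45 bulk RNA libraries form 15 groups of 3, from 3 independent differentiations according to the series' design text. D0 is the undifferentiated mESCs, whose line and genotype the labels do not name, and D3 the neuromesodermal progenitors (NMPs) reached under bFGF and the WNT activator CHIR. All later groups were made from such NMPs. R groups received 100 nM RA alone (R4, R5, R7, R9, the digit giving the day). B groups had a first day of RA, with BMP4 at 10 ng/ml joining it for the second 24 h (B5, B7, B9). M groups received RA and BMP4 together from day 3 (M4 after 24 h; M5, M7 and M9 after 48 h). R6hr and B6hr were taken 6 h after day 4. The labels write the RA interval of the R groups in ways that differ, and the protocol text calls the third condition C where the sample names have M. M and B differ in both the start and the length of the BMP4 treatment.

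GATA factors are named for the DNA motif they bind through a pair of zinc fingers. Gata1, Gata2 and Gata3 are best known from blood, the nervous system and ectoderm, whereas Gata4, Gata5 and Gata6 act in heart, lateral mesoderm and endoderm. BMP4 is a signalling protein that patterns the dorsal neural tube and also promotes lateral and cardiac mesoderm, where Gata genes are among the genes switched on. Gata4 and Gata6 also mark the primitive endoderm, a lineage that can arise in mESC cultures.

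The family likeness sits in the zinc finger coding sequence, and it bears on whether short reads of 1 member could be taken for another. In GENCODE M21 on mm10, Gata4 (ENSMUSG00000021944) lies at chr14:63198922-63271692 on the minus strand and Gata5 (ENSMUSG00000015627) at chr2:180325133-180334699 on the minus strand. Both are protein-coding, with 7 and 6 exons in the longest coding transcript. Over the best 150 coding bases, Gata4 and Gata5 were identical at 80.0%, Gata4 and Gata6 at 80.0%, and Gata5 and Gata6 at 73.3%. The longest exact run shared by annotated exons was 26 bases between Gata4 and Gata5, 18 between Gata4 and Gata6 and 15 between Gata5 and Gata6, and no run of 50 bases was shared by any pair. The most alike 60 coding bases of Gata4 and Gata5, which overlap the C-terminal zinc finger and span an exon junction, are shown 5′ to 3′ with the 8 differing bases in capitals:
Gata4: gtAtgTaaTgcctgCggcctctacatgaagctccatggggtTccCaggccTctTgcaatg
Gata5: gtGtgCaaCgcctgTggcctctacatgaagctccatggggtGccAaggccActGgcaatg
The Gata4 stretch is coding bases 871 to 930 (chr14:63203659-63203697 in exon 4 and chr14:63203378-63203398 in exon 5, minus strand). The Gata5 stretch is coding bases 808 to 867 (chr2:180328307-180328345 in exon 3 and chr2:180327827-180327847 in exon 4, minus strand).

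Of the 3 genes, Gata5 has an entry in the RefSeq promoter table (GRCm38.p6). Its 230 bases upstream of the annotated start, chr2:180334700-180334929 on the minus strand, are shown because Gata5 had the largest response of the 3 to RA with BMP4. Capitals mark a CACGTG E-box:
Gata5 upstream: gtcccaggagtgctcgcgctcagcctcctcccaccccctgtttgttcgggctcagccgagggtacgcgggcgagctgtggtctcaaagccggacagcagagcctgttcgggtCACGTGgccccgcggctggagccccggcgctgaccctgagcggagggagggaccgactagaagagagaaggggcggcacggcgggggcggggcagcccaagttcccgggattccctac
This stretch is 70.4% G and C, against a median of 51.7% over the first 230 bases of the entries in the promoter table. Those bases, also used for the shares of promoters below, need not end at the annotated start of each gene. Letters were searched on both strands. The E-box CACGTG was found 118 bases before the start and is present in 5.35% of 32851 promoters of the same length. The GATA motif was searched as AGATAA, with a final G as AGATAG, with a leading T as TGATAA and with both changes as TGATAG, and 25.4% of promoters hold at least 1 of these forms. None of them is in this window, nor are the SMAD-type letters GGCGCC, held by 8.63%. The SMAD box GTCTAGAC, held by 0.164% of promoters, and the retinoic acid receptor core site AGGTCA, held by 13%, were not found either. The E-box is also the only match here of the general form CANNTG, which 63.5% of promoters hold.

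Values are the authors' normalized levels, which carry no unit in the file, with no known depth and no known length scaling, so levels were compared within a gene and never between genes. The listed levels of a library summed to between 12245725 and 15868724. Tests are limma-trend on log2(level + 1) with all libraries in 1 fit, Benjamini-Hochberg adjusted over the 11220 genes, and a gene is called at an adjusted p under 0.05. The table holds genes that the authors' own tests placed under a false discovery rate of 0.1 in at least 1 comparison, so shares of genes called refer to a selected set. The labels do not say which differentiation a replicate number stands for, and p-values measure the spread between these libraries. Some libraries stood apart from their group. D0 replicate 3 had a summed level of 11 pluripotency genes of 107496, against 19585 and 17910.1 in the other two. D3 replicate 1 had a summed level of 11 neuronal genes of 6608, against 30920.2 and 32319.8. Replicate 1 of R6hr and of B6hr had the lowest summed level of 15 BMP target genes in its group, 14139 and 6605.

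Each gene was highest in an M group and lowest in R9. Gata6 (ENSMUSG00000005836), the protein-coding gene not placed above, lies at chr18:11052064-11085635 on the plus strand in the same annotation and has 7 exons. Gata4 was highest in M7 (4059 ± 615, mean ± SD, n = 3) and M5 (3908 ± 449) and lowest in R9 (421 ± 66.4), a 9.65-fold range of group means. Gata6 ran from 5291 ± 418 in M5 to 204 ± 46.4 in R9, a range of 26.0-fold. Gata5 ran from 2009.7 ± 721 in M5 to 8.85 ± 5.53 in R9, a range of 227-fold. In descending order of means, libraries of neighbouring groups overlapped at every step except M5 to M9 for Gata4, B9 to R7 for Gata5 and M5 to M7 for Gata6. Differences between groups made up 75.5% of the variance of log2 levels for Gata4, 88.9% for Gata5 and 83.7% for Gata6, beside a median of 76.8% over all genes.

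**Figure D1:**
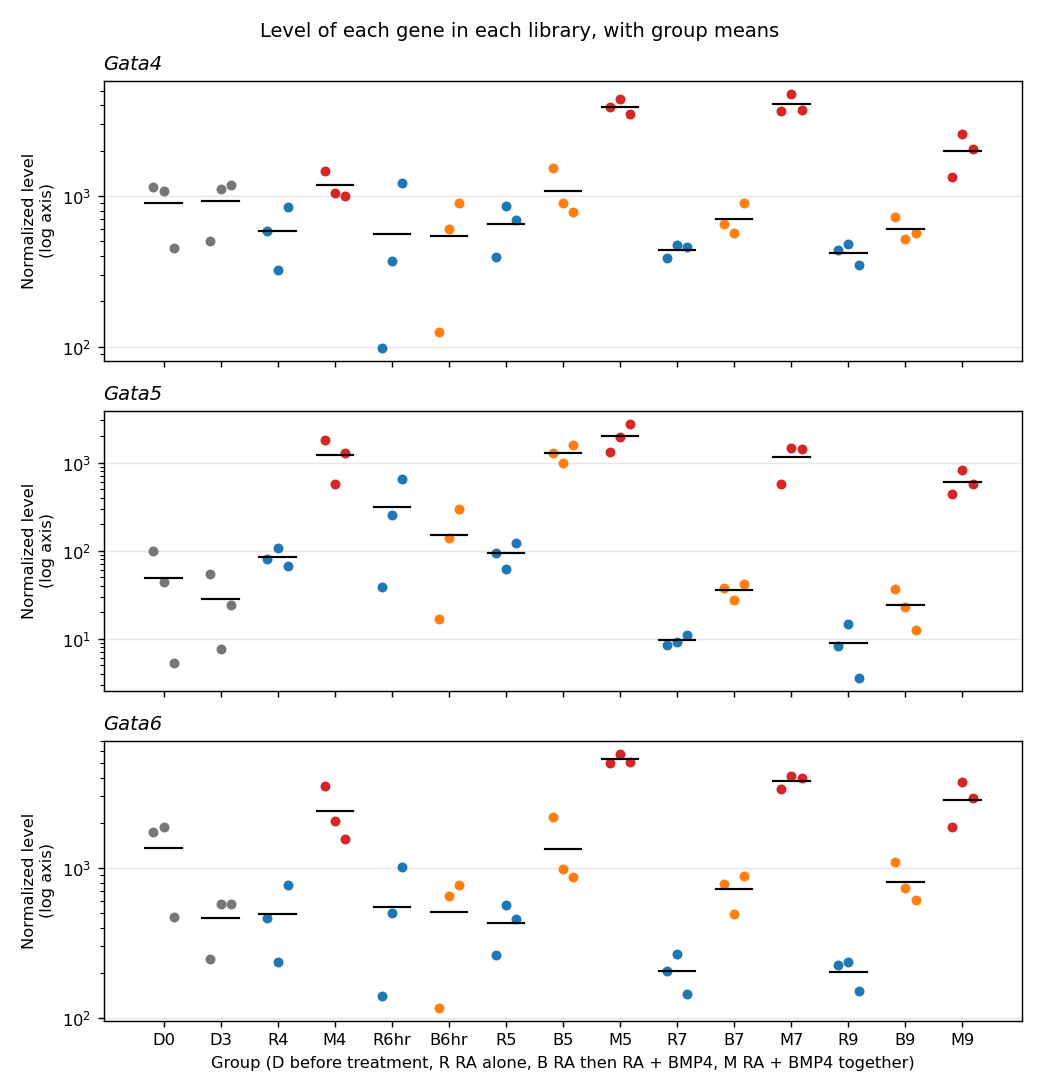
Normalized level (log axis, no unit given) of Gata4, Gata5 and Gata6 in each of the 45 libraries, by group; points are libraries, black lines are means of 3. All M libraries of days 5, 7 and 9 lie above all R libraries of the same day for each gene, and Gata5 in the B groups is high on day 5 and low on days 7 and 9.

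RA with BMP4 from day 3 was first compared with RA alone (M against R), which asks what BMP4 adds when it is present from the start. Every M library was above every R library of its day for each of the 3 genes, 12 of 12 libraries in each case. In bulk RNA, fewer cells of a type and less RNA per cell cannot be told apart. After 24 h, Gata5 stood at 1803, 565 and 1297 in the 3 M4 libraries and at 80.8, 106 and 66.9 in the 3 R4 libraries, 14.5-fold higher by means (log2 fold change 3.71, SE 0.87, adjusted p = 0.0032). Gata6 stood at 3536, 2065 and 1554 in M4 and 461, 236 and 776 in R4, 4.86-fold higher (log2 fold change 2.35, SE 0.61, adjusted p = 0.007). Gata4 was at 1474, 1048 and 1003 in M4 and 584, 324 and 849 in R4. The groups did not overlap, but the Gata4 difference did not pass the test (log2 fold change 1.09, SE 0.58, adjusted p = 0.24, 95% interval -0.10 to 2.27). So 2 of 3 genes were called on day 4, where 14.1% of all genes were called and 6.76% as higher. The Gata6 call on day 4 was lost without R4 replicate 2 (1.91, adjusted p = 0.059).

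After 48 h all 3 genes rose, in a comparison where 44.3% of genes were called, 21.0% as higher. Gata4 was at 3878, 4371 and 3474 in M5 and 392, 862 and 691 in R5 (log2 fold change 2.66, SE 0.58, adjusted p = 0.00041), 6.03-fold by means. Gata5 was at 1312, 1964 and 2753 in M5 and 95, 61.2 and 123 in R5 (4.41, adjusted p = 0.00012), and Gata6 at 5039, 5774 and 5061 and 261, 568 and 459.9 (3.69, adjusted p = 1e-05). The 3 M5 libraries lay close together for Gata4 and Gata6, with SDs of 449 and 418, and more widely for Gata5, with an SD of 721.

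All 3 genes were also called on days 7 and 9. On day 7, when 43.5% of genes were called and 22.9% were higher, Gata5 was at 575, 1469.6 and 1434 in M7 and at 8.54, 9.21 and 11 in R7, 121-fold by means (log2 fold change 6.66, SE 0.87, adjusted p = 2.2e-07). Gata4 was 9.23-fold higher, at 3687, 4769 and 3720.0 in M7 and 387, 473 and 460.2 in R7 (3.20, adjusted p = 4.1e-05). Gata6 was 18.6-fold higher, at 3357, 4132 and 3987 and 206, 266 and 145 (4.25, adjusted p = 1e-06). On day 9, with 51.0% of genes called and 27.5% higher, all 3 were again called. Gata4 was at 1339, 2574 and 2046 in M9 and 438, 477 and 348 in R9 (2.20, adjusted p = 0.0023). Gata5 was at 434, 814 and 571 and 8.35, 14.6 and 3.58 (6.07, adjusted p = 1.1e-06), and Gata6 at 1871, 3721 and 2939.6 and 226, 235 and 150.3 (3.77, adjusted p = 6.5e-06). The change of the M effect from day 5 to day 9 did not pass the test for any of the 3 (-0.46 for Gata4, 1.66 for Gata5 and 0.08 for Gata6, adjusted p from 0.29 to 0.95), beside 38.9% of all genes.

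**Figure D2:**
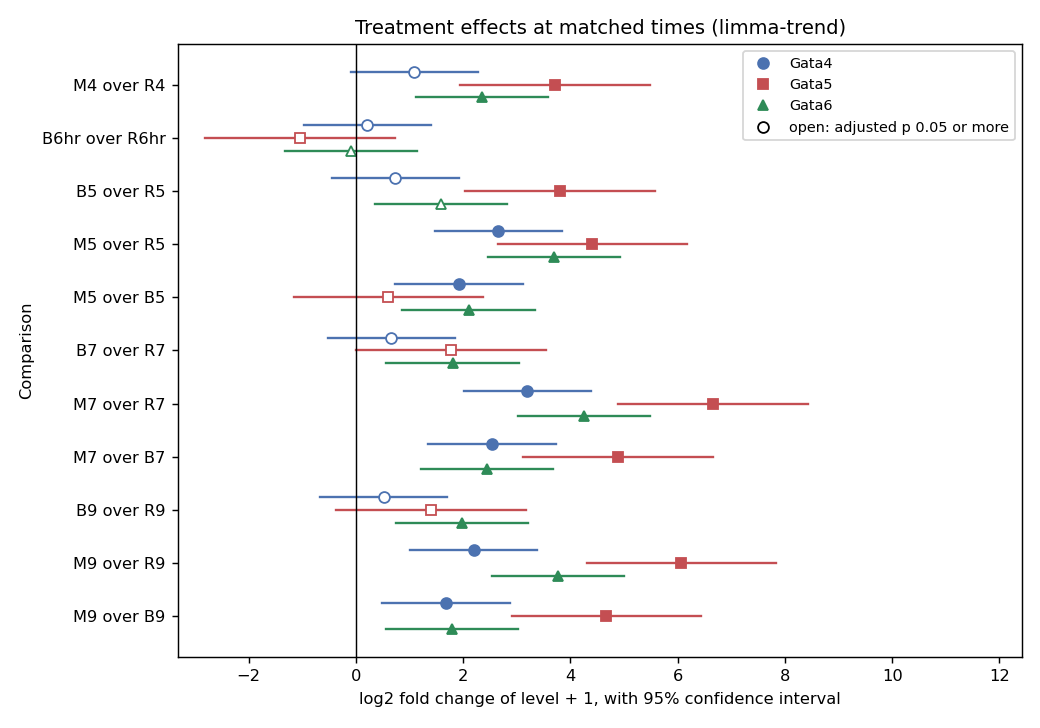
log2 fold change of level + 1 with its 95% confidence interval for each gene in the 11 treatment comparisons at matched times, from limma-trend with all libraries in 1 fit; open symbols did not pass an adjusted p of 0.05. Gata5 has the largest estimate in every M over R comparison, and all 3 open symbols at 6 h have intervals that include 0.

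RA followed by RA with BMP4 was then compared with RA alone (B against R). It uses the same R libraries as the comparison above. On day 5, after 24 h of BMP4, Gata5 was at 1288, 980.4 and 1587 in B5 against 95, 61.2 and 123 in R5, 13.8-fold higher (log2 fold change 3.80, SE 0.87, adjusted p = 0.0071), 1 of the 3 in a comparison with 5.99% of genes called and 2.76% higher. Gata6 was at 2188, 982 and 868 in B5 and 261, 568 and 459.9 in R5, without overlap, and did not pass (log2 fold change 1.59, SE 0.61, adjusted p = 0.11); in the authors' deposited table its false discovery rate is 0.049. Gata4 was at 1534, 902 and 780.2 in B5 and overlapped R5 at 392, 862 and 691 (0.73, adjusted p = 0.51).

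By day 7, after treatment had ended, the Gata5 level of the B group had fallen. Gata5 was at 38, 27.3 and 41.6 in B7, 36.1-fold below B5 (log2 fold change -5.13, SE 0.87, adjusted p = 4.7e-05), in a comparison over time with 31.2% of genes called and 15.4% lower. The B7 libraries were still all above the R7 libraries, at 8.54, 9.21 and 11, but the difference did not pass the test (1.78, adjusted p = 0.13, 95% interval 0.01 to 3.54). It did pass with the libraries of those groups alone (adjusted p = 0.015) and with array weights (adjusted p = 0.0049). On day 9 Gata5 was at 36.5, 23.2 and 12.5 in B9, overlapping R9 at 8.35, 14.6 and 3.58 (1.40, adjusted p = 0.31).

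Gata6 passed the test between B and R on days 7 and 9. It was at 781, 496 and 881 in B7 and 206, 266 and 145 in R7, 3.5-fold higher (log2 fold change 1.80, SE 0.61, adjusted p = 0.03), and it was the only 1 of the 3 called on day 7, where 23.7% of genes were called and 12.1% were higher. It was at 1091, 731 and 611 in B9 and 226, 235 and 150.3 in R9, 3.98-fold higher (log2 fold change 1.97, SE 0.61, adjusted p = 0.031), again 1 of 3, with 11.8% of genes called and 6.12% higher. Both calls are near the threshold. The day 7 call was lost without R7 replicate 1 or 3 or B7 replicate 1 or 3 (1.57 to 1.82, adjusted p from 0.063 to 0.11), and the day 9 call without any 1 of the 6 libraries (1.74 to 2.15, adjusted p from 0.05 to 0.11). Gata4 did not pass between B and R on any of the 3 days (0.73, 0.66 and 0.52 on days 5, 7 and 9), although its libraries did not overlap on days 7 and 9. It stood at 652, 572 and 894 in B7 and at 724, 518 and 569 in B9. The change of the B effect between days 5 and 9 did not pass for Gata5 (-2.40, adjusted p = 0.36, 95% interval -4.90 to 0.10; 2.11% of genes called) but did with array weights (-3.14, adjusted p = 0.023).

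The BMP4 schedules were set against each other by M against B on the same day. On day 5 Gata4 was 3.65-fold (log2 fold change 1.92, SE 0.58, adjusted p = 0.019) and Gata6 3.93-fold higher in M5 (log2 fold change 2.10, SE 0.61, adjusted p = 0.014), without overlap. Gata5, at 1312, 1964 and 2753 in M5 and 1288, 980.4 and 1587 in B5, overlapped and did not pass (0.61, adjusted p = 0.69, 95% interval -1.16 to 2.38). So 2 of 3 were called, beside 17.8% of all genes and 8.57% as higher. Both day 5 calls depended on single libraries. Gata4 was not called without B5 replicate 2 or 3 or M5 replicate 1 or 2 (1.73 to 1.92, adjusted p from 0.054 to 0.098). Gata6 was not called without B5 replicate 3 (1.85, adjusted p = 0.087) or M5 replicate 2 (2.04, adjusted p = 0.054).

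On day 7 all 3 genes were higher in M7 than in B7, where 41.6% of genes were called and 21.7% were higher. Gata5 was 32.5-fold higher (log2 fold change 4.89, SE 0.87, adjusted p = 4.4e-05), Gata4 5.75-fold (2.54, adjusted p = 0.00083) and Gata6 5.32-fold (2.44, adjusted p = 0.0017). On day 9, with 51.5% of genes called and 27.8% higher, the ratio of means was 25.2 for Gata5 (4.67, adjusted p = 6.8e-05), 3.29 for Gata4 (1.68, adjusted p = 0.017) and 3.51 for Gata6 (1.80, adjusted p = 0.014). The day 9 calls of Gata4 and Gata6 were lost without M9 replicate 2 (1.47, adjusted p = 0.073, and 1.57, adjusted p = 0.065). Gata4 was also not called without B9 replicate 2 (1.58, adjusted p = 0.052), nor Gata6 without B9 replicate 3 (1.61, adjusted p = 0.057). The M over B difference of Gata5 grew by 4.28 on the log2 scale from day 5 to day 7 (SE 1.23, adjusted p = 0.019), a comparison made after the values were seen, in which 14.3% of genes were called and 7.57% were higher. The same growth was 0.61 for Gata4 (adjusted p = 0.65) and 0.34 for Gata6 (adjusted p = 0.82). The Gata5 call was lost without B5 replicate 3 (4.11, adjusted p = 0.05), M5 replicate 1 (4.00, adjusted p = 0.054) or M7 replicate 2 (4.05, adjusted p = 0.054).

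At 6 h into the second day no difference between B6hr and R6hr was called for any of the 3 genes, by limma-trend or in the authors' deposited table, and 0 of 3 had an unadjusted p under 0.05. The libraries of both groups were spread widely. Gata5 was at 38.6, 251 and 651 in R6hr and 16.9, 138 and 295 in B6hr (-1.05, adjusted p = 0.52, 95% interval -2.82 to 0.72). Each B6hr library was below the R6hr library with the same number. Same-numbered libraries of these groups deviated together (correlations of 0.59, 0.19 and 0.46), and with the replicate number as a block within these 6 libraries the Gata5 difference was called (-1.05, adjusted p = 0.0021), as a lower level with BMP4. In that fit 2902 genes (25.9%) were called, against 2 (0.0178%) without the block. Gata4 was at 98.1, 370.4 and 1214 in R6hr and 124, 608 and 903 in B6hr (0.21, adjusted p = 0.88), and Gata6 at 140.0, 501 and 1008 and 116, 648 and 768 (-0.09, adjusted p = 0.95). Replicate 1 was the lowest of its group for each gene in both groups. From B6hr to B5 Gata5 rose (3.80, adjusted p = 0.0023) and so did Gata6 (1.67, adjusted p = 0.039), a comparison added after the values were seen with 28.4% of genes called and 17.2% higher. Without B6hr replicate 1 the Gata6 change was 0.80 (adjusted p = 0.36), and without B5 replicate 1 it was 1.25 (adjusted p = 0.2). Gata5 was still called without replicate 1 of both 6 h groups (2.63, adjusted p = 0.023), but not with the replicate block within the libraries compared (3.80, adjusted p = 0.12). From R4 to R6hr and from R6hr to R5 no change of the 3 genes was called (adjusted p from 0.33 to 0.99), and 0 of 3 had an unadjusted p under 0.05 in either step (5.45% and 19.1% of genes called).

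B5 and M4 had each seen BMP4 for 24 h, but from different days and with or without RA beforehand. The 3 genes were not called between them (0 of 3, and 0 of 3 at an unadjusted p under 0.05, beside 9.88% of genes called). The difference of B5 from M4 was -0.17 for Gata4 (95% interval -1.36 to 1.01), 0.20 for Gata5 (-1.57 to 1.97) and -0.87 for Gata6 (-2.10 to 0.37). Same-numbered libraries of B5 and M4 deviated together, with correlations from 0.61 to 0.67. With the replicate number as a block within these 6 libraries, Gata6 was called as lower in B5 (-0.87, adjusted p = 0.0008), in a fit that called 27.1% of all genes. Its B5 library was below the M4 library with the same number in 3 of 3 pairs. When the difference of B5 from R5 was set against that of M4 from R4, no gene was called (0 of 3, beside 1.13% of genes; 0 of 3 at an unadjusted p under 0.05), and the estimates were -0.35, adjusted p = 1 for Gata4, 0.09, adjusted p = 1 for Gata5 and -0.77, adjusted p = 0.96 for Gata6.

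Before any RA or BMP4, Gata4 and Gata6 were already present in the cultures. In D0, Gata6 was at 1731, 1877 and 469.5 and Gata4 at 1155, 1085 and 454. Replicate 3 was lowest for both and is the library with the highest pluripotency sum. Gata5 in D0 was at 99.5, 43.9 and 5.29. Gata6 was lower in D3, at 247, 574 and 579, with an adjusted p just under the threshold (log2 fold change -1.40, SE 0.61, adjusted p = 0.0496). This call was lost without D0 replicate 1 (-1.11, adjusted p = 0.17), D0 replicate 2 (-1.05, adjusted p = 0.2) or D3 replicate 1 (-0.996, adjusted p = 0.21), in a comparison with 54.9% of genes called and 24.0% lower. Quantile normalization moved the median of all genes by -0.12 there, and Gata6 remained called (-1.55). Gata4, at 501, 1121 and 1176 in D3, was not called (0.07, adjusted p = 0.93), and neither was Gata5, at 53.9, 7.58 and 24 (-0.42, adjusted p = 0.7). With array weights Gata5 was called as lower in D3 (-2.46, adjusted p = 0.00022).

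Over the first 24 h of treatment, RA alone left the 3 genes uncalled (R4 against D3, 0 of 3 and 24.3% of all genes), while 1 of the 3, Gata5, had an unadjusted p under 0.05 (1.88, adjusted p = 0.11). Gata5 was called there without D3 replicate 1 (2.52, adjusted p = 0.04). With RA and BMP4, Gata5 rose (log2 fold change 5.59, SE 0.87, adjusted p = 7.1e-06) and so did Gata6 (log2 fold change 2.37, SE 0.61, adjusted p = 0.0029) between D3 and M4, and Gata4 was not called (0.41, adjusted p = 0.63), with 32.6% of genes called and 14.9% higher. With BMP4 on the second day Gata5 rose between R4 and B5 (3.91, adjusted p = 0.003), 1 of 3 beside 9.96% of genes and 5.09% higher, and Gata6 did not pass (1.49, adjusted p = 0.12).

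Between the first and second day of RA with BMP4, Gata4 rose 3.33-fold (M5 against M4, log2 fold change 1.75, SE 0.58, adjusted p = 0.049), 1 of 3 beside 10.4% of genes and 5.22% higher, while Gata5 (0.81, adjusted p = 0.63) and Gata6 (1.23, adjusted p = 0.21) were not called. This Gata4 call was lost without any 1 of the 6 libraries (1.65 to 1.92, adjusted p from 0.06 to 0.15). From M5 to M7 (12.5% of genes called) and from M7 to M9 (4.00%) 0 of 3 were called, and 0 of 3 had an unadjusted p under 0.05. With the M5 and M7 libraries alone, Gata6 was called as lower in M7 (-0.47, adjusted p = 0.038). Mean levels of all 3 were lower in M9 than in M7, by 2.04-fold for Gata4, 1.91-fold for Gata5 and 1.35-fold for Gata6. Same-numbered libraries of M7 and M9 deviated together, with correlations from 0.25 to 0.28, and with the replicate block within them the Gata4 change was called (-1.07, adjusted p = 0.029), beside 3.69% of all genes. In the RA alone groups Gata5 fell from R5 to R9 (log2 fold change -3.37, SE 0.87, adjusted p = 0.0027), 1 of 3 beside 39.1% of genes and 21.5% lower. Gata4 (-0.56, adjusted p = 0.47) and Gata6 (-1.03, adjusted p = 0.18) did not pass. From B7 to B9 (14.2% of genes called) 0 of 3 were called and 0 of 3 had an unadjusted p under 0.05.

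To ask whether the 3 genes responded by the same factor, the log2 ratio of each pair was taken within a library, which removes anything that scales both genes alike. Differences of this ratio were tested by an exact two-sided permutation test with labels permuted within days, and the p-values of 9 tests were adjusted together. Gata5 over Gata4 was higher with M than with R by 2.93, adjusted p = 5.6e-05 (higher on 4 of 4 days, 1.75 to 3.87). Gata6 over Gata4 was higher by 1.23, adjusted p = 5.6e-05 (4 of 4 days, 1.03 to 1.57), and Gata5 over Gata6 by 1.70, adjusted p = 0.00056 (4 of 4 days). By these ratios Gata5 rose by the largest factor and Gata4 by the smallest. Before adjustment, the p of the Gata5 over Gata4 and Gata6 over Gata4 tests was 1.25e-05, the smallest that this exact permutation test can give for M against R. All 9 tests take libraries of different days as independent. If the same 3 differentiations were sampled on each day, which the labels do not say, these p-values may be too small.

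Between B and R, added after the values were seen, Gata6 over Gata4 was higher by 1.15, adjusted p = 0.00056 (3 of 3 days) and Gata5 over Gata4 by 1.69, adjusted p = 0.0009 (3 of 3 days, from 3.07 on day 5 to 0.88 at the lowest). Gata5 over Gata6 did not pass (0.54, adjusted p = 0.26). Every R library of days 5, 7 and 9 had a lower ratio of Gata6 over Gata4 than every B and M library of its day. This ratio stood at -0.91, -0.83 and -1.66 in R7, against 0.26, -0.20 and -0.02 in B7 and -0.14, -0.21 and 0.10 in M7. Between M and B this ratio differed by 0.07, adjusted p = 0.45 (-0.09 to 0.18 by day). Gata5 over Gata4 was higher in M than in B by 1.34, adjusted p = 0.048, with the sign turned on day 5 (-1.32) and 2 of 3 days higher. It was not called when any 1 of 14 of the 18 libraries was left out (1.22 to 1.41, adjusted p from 0.059 to 0.098), that is, each except B5 replicate 3, M5 replicates 1 and 2, and M7 replicate 1. Gata5 over Gata6 differed between M and B by 1.27, adjusted p = 0.058, also with the sign turned on day 5 (-1.49).

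**Figure D3:**
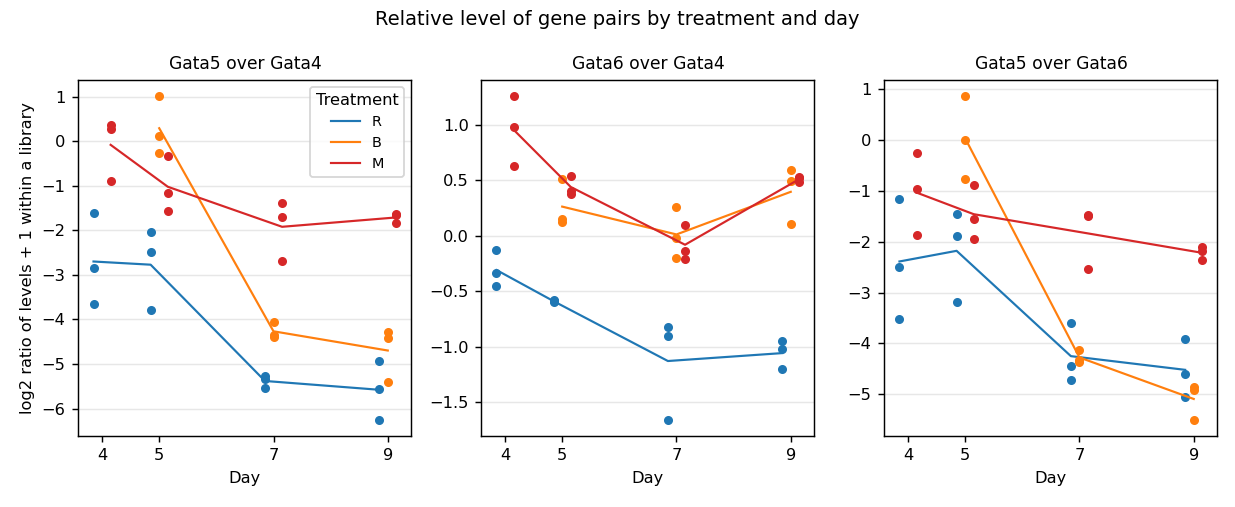
log2 ratio of 2 genes' levels (+ 1) within each library, by day (x axis) for R (blue), B (orange) and M (red); points are libraries and lines join means of 3. The zero of a ratio has no meaning since gene lengths were not scaled; differences between treatments do. Gata6 over Gata4 in R lies below B and M on days 5, 7 and 9, and Gata5 over Gata4 in B lies above M on day 5 and between R and M on days 7 and 9 by its means.

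Genes whose pattern was most like each of the 3 were ranked by Pearson's r over the 15 group means of log2(level + 1), among 10643 genes with a group mean of at least 20. This is a description over groups that share treatments. For Gata5 they included Hand2 (r = 0.96), Fzd4 (0.95), Foxf1 (0.94) and Tbx2 (0.94). Hand2, Foxf1 and Tbx2 encode transcription factors of heart and lateral mesoderm, and Fzd4 a WNT receptor. Hand2 stood at 1033, 3094 and 3272 in M7, 150.4, 132 and 233 in B7 and 51.8, 72 and 26.5 in R7. For Gata4 they were Gstm2 (0.97), Ece1 (0.96), Sptssb (0.96), Spin1 (0.96) and Gem (0.95). For Gata6 they were 1010001N08Rik (0.96), Ifitm10 (0.96), Kank2 (0.96), F2r (0.96) and Spin1 (0.96). Gata4 and Gata6 had an r of 0.92 with each other, Gata5 and Gata6 of 0.82 and Gata4 and Gata5 of 0.73. Over the 45 libraries instead of the group means, Gata6 ranked first for Gata4.

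The top-ranked gene for Gata6, 1010001N08Rik, is annotated on the opposite strand and shares exon bases with Gata6. Gata5 has such a partner as well, Gata5os. Whether the authors' counting used strand is not given in the sources used here, so reads of a gene and of its antisense partner cannot be told apart. 1010001N08Rik was at 281, 353 and 325 in M5, 94.5, 116 and 138 in M7 and 42.8, 84.2 and 77.1 in M9, and at 3.97, 17.9 and 24.7 in R5, 6.59, 11.9 and 6.11 in R7 and 4.61, 4.55 and 3.5 in R9. It rose in M against R on day 4 (2.44, adjusted p = 0.013), day 5 (4.57, adjusted p = 2.5e-06), day 7 (3.71, adjusted p = 4.9e-05) and day 9 (3.67, adjusted p = 5e-05). In B against R it was not called on day 7 (0.71, adjusted p = 0.48), where Gata6 was. Gata5os was at 15.4, 25.4 and 22.3 in M5, 10.6, 10.3 and 6.71 in B5 and 1.19, 1.14 and 1.32 in R5, and like Gata5 it fell from B5 to B7 (-2.36, adjusted p = 8.3e-05), to 0.658, 0.723 and 1.6.

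**Figure D4:**
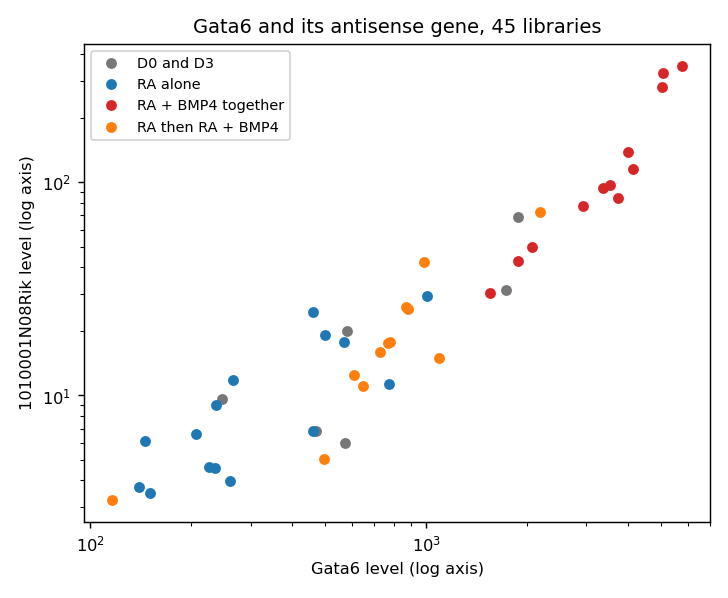
Level of 1010001N08Rik against level of Gata6 in the 45 libraries (both axes log, no unit given), coloured by treatment. The M5 libraries are at the upper right, with 281 to 353 of 1010001N08Rik and 5039 to 5774 of Gata6, and the points fall along 1 band.

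Of the other GATA and GATA-like genes and the FOG cofactors that GATA proteins bind, 5 of 6 were in the table (Gata1 was not). In M against R, 4 of 5 rose on days 5, 7 and 9 and 3 of 5 on day 4, with 0 lower each time, beside 21.0%, 22.9%, 27.5% and 6.76% of all genes higher on days 5, 7, 9 and 4. The list median was 2.20 on day 5, beside -0.02 for all genes. Zfpm1, which encodes FOG1, rose on day 5 (2.65, adjusted p = 3.6e-08), with levels of 4807, 5689 and 5242 in M5 and 855, 819 and 821 in R5. Zfpm2, which encodes FOG2, a partner of GATA4 in the heart, was not called on day 4 (-0.28, adjusted p = 0.76) and rose on day 5 (2.11, adjusted p = 0.00017), day 7 (3.33, adjusted p = 1.8e-07) and day 9 (3.47, adjusted p = 8.5e-08). Gata2 was at 1418, 907 and 982 in M4 against 123, 149 and 124 in R4 (3.03, adjusted p = 0.0011) and rose on the later days too. Gata2 was also higher in B7 than in R7 (2.27, adjusted p = 0.01), at 505, 443 and 505 and 112, 106 and 81.7. Gata3 was at 1754, 1197 and 1959 in B5 and 242, 267 and 373 in R5 (2.47, adjusted p = 0.034) and at 171, 140.3 and 234 in B7 and 183, 189 and 128 in R7 (0.12, adjusted p = 0.93). Trps1 was called in M against R on day 9 (0.93, adjusted p = 0.0015).

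The genes that GATA factors are known with were read from marker lists. Counts in these lists are to be read beside the share of all genes called in M against R, in either direction, of 14.1%, 44.3%, 43.5% and 51.0% on days 4, 5, 7 and 9. Among 15 cardiac and lateral mesoderm transcription factors, M against R gave 7 higher and 3 lower on day 4, 8 higher and 2 lower on day 5, 8 higher and 0 lower on day 7 and 9 higher and 1 lower on day 9 (list medians 1.73, 1.85, 2.14 and 1.37, beside -0.02, -0.02, 0.01 and 0.04 for all genes). Hand1 (8.54, adjusted p = 6e-09), Tbx20 (6.19, adjusted p = 2.6e-09), Tbx5 (5.06, adjusted p = 5.2e-07) and Foxf1 (2.78, adjusted p = 6.6e-05) had the smallest adjusted p on day 5. The list did not rise as a whole. Among the 3 lower on day 4 were Mesp2 (-2.14, adjusted p = 0.003) and the cardiac factor Nkx2-5 (-0.85, adjusted p = 0.024). Of 15 genes for the contractile apparatus and peptides of cardiomyocytes in the table, M against R gave 3 higher and 4 lower on day 5, 3 higher and 5 lower on day 7 and 1 higher and 8 lower on day 9. The shares called on days 5 and 7 are near those of all genes. Myh6, a cardiac myosin heavy chain, was lower in M9 than R9 (-2.89, adjusted p = 1.7e-05), as were Myh7 (-3.42, adjusted p = 6.3e-07) and the Z-disc gene Actn2 (-2.73, adjusted p = 3.1e-07). Myh6 stood at 18, 6.5 and 24.5 in M9 and 79.3, 104 and 175 in R9. Nppa, the atrial peptide and a GATA4 target, was higher in M7 (4.19, adjusted p = 1.1e-06), at 73, 62.5 and 87.5 against 4.15, 7.11 and 0.623.

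Markers of other cell types also differed between treatments, some lists higher and some lower in M than in R. Their part in the result was not tested. No gene was at 0 in any library, listed markers included, so a level above 0 is no sign that a marker was detected. Of 10 mesothelium and epicardium genes in the table, 9 were higher in M7 than in R7 and 8 in M9 than in R9, and 0 were lower, beside 22.9% and 27.5% of all genes higher on those days. Their summed level was 14003 to 19281 in M7 and 2726 to 4467 in R7. Wt1 (3.58, adjusted p = 1.2e-07) and Bnc1 (5.35, adjusted p = 1.2e-08) were among them. In B against R, 7 of 10 were higher on day 7 and 8 on day 9, beside 12.1% and 6.12% of all genes, with summed levels of 5403 to 9772 in B7. Of 12 endocardium and endothelium genes, 8 were higher and 1 lower in M5 than R5, and 9 higher and 0 lower in M7 than R7 (sums of 1980.4 to 3294 and 1124 to 1579.7). In M9 against R9, 3 were higher and 1 lower, beside 27.5% of all genes higher. In B against R, 6 were higher and 1 lower on day 7 and 0 were called on day 9, beside 12.1% and 6.12% of all genes higher. Of 12 smooth muscle and mesenchyme genes, 6 were higher and 0 lower in M7 than R7, with sums of 42371 to 53335 and 4300.5 to 22808. Of 11 neural progenitor genes, 0 were higher and 10, 11, 9 and 7 lower in M than R on days 4, 5, 7 and 9. Their sum was 4084 to 8450.1 in M5 and 38354 to 67478 in R5. Of 11 neuronal genes, 0 were higher and 2, 7, 8 and 5 lower in M than R on those days, with sums of 2687 to 9529.5 in M7 and 7360.5 to 28629 in R7. Of 11 pluripotency genes, 10 were higher and 0 lower in M5 than R5 (list median 2.10), with sums of 2309.6 to 5749 and 595 to 1393. On day 9, 10 of the 11 were lower in M9 than R9 (list median -2.89) and 11 of 11 lower in M9 than B9, with sums of 974 to 2066 in M9, 6273 to 11973 in R9 and 5201 to 11916 in B9. In M9 against B9, 51.5% of all genes were called. On days 4 and 7, 0 of 11 pluripotency genes were called in M against R. Gata4 and Gata6 were themselves present in the D0 libraries, which the labels call undifferentiated. In D0 replicates 1, 2 and 3, Pou5f1 was at 3064, 2678 and 22336 and the neuronal gene Tubb3 at 6070, 8907 and 2171. Which cells of D0 held Gata4 and Gata6 was not tested.

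Endoderm markers, which belong to the other lineage known for Gata4 and Gata6, were counted in the same way. Of 22 primitive and visceral endoderm genes in the table, M against R gave 1 higher and 1 lower on day 4, 8 higher and 3 lower on day 5, 6 higher and 1 lower on day 7 and 2 higher and 7 lower on day 9. The share called on day 5, 11 of 22, is near that of all genes, and the 7 of 22 on day 7 are a smaller share than that of all genes. B against R gave 0 of 22 on day 5, beside 5.99% of all genes called, so this count is near that share. On day 7 B against R gave 3 higher and 1 lower, and on day 9 it gave 0 higher and 0 lower. Beside these, 23.7% and 11.8% of all genes were called. The summed level was 43001 to 58574 in M5 and 36776 to 76842 in R5, and 50373 to 67627 in D0. Among genes picked after their values were seen, the endoderm regulator Sox17 was at 92.7, 126 and 233 in M7 and 251, 336 and 264 in R7, and Hnf4a at 35.7, 67.4 and 107 and 53.4, 69.3 and 41.5. Apob (3.67, adjusted p = 7e-06) and Afp (3.09, adjusted p = 0.0018), which encode secreted proteins of visceral endoderm and liver, were higher in M7. Apob (2.49, adjusted p = 0.0035) and Afp (2.47, adjusted p = 0.022) were also higher in B7 than in R7. Of 11 definitive and gut endoderm genes, M against R gave 1 higher and 2 lower on day 4, 2 higher and 1 lower on days 5 and 7, and 1 higher and 4 lower on day 9. Of 15 BMP target genes, M against R gave 8 higher and 0 lower on day 4, 6 higher and 1 lower on day 5, 5 higher and 1 lower on day 7 and 4 higher and 0 lower on day 9. Beside these counts, 14.1%, 44.3%, 43.5% and 51.0% of all genes were called, and 6.76%, 21.0%, 22.9% and 27.5% as higher. The shares called on days 5 and 7 are near those of all genes, and that on day 9 is smaller. The share higher on day 9 is near that of all genes. B against R gave 4 higher and 0 lower on day 5, 0 higher and 2 lower on day 7 and 0 higher and 0 lower on day 9. Of all genes, 5.99%, 23.7% and 11.8% were called in B against R on those days, and 2.76%, 12.1% and 6.12% as higher. Bambi, a decoy receptor induced by BMP signalling, was among the risen genes in M4 (2.55, adjusted p = 0.0002) and B5 (2.28, adjusted p = 0.0023).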

How the data were processed

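Bulk RNA of 45 libraries (15 groups of 3) was read from 1 table that the authors deposited. Its levels are a signal that the authors normalized across libraries before deposit, with no unit per the file headers. They are not counts: 0 are 0 and 1 is whole. The table also holds the authors' deposited log2 fold changes, p-values and false discovery rates, and a score column that was not used. The submitters' processing notes list Picard, edgeR and the mm10 build, without roles or versions. Which aligner, counter and strand setting were used is not stated by the labels or the table. The table lists 11220 of about 16011 genes tested by the authors, estimated from the rates.

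Groups came from sample titles. Log2(level + 1) was fitted with limma 3.58.1 (R 4.3.3), with trend and robust variance and 1 coefficient per group, and adjusted over all genes in each of 29 contrasts. A filter of level 1 in 3 libraries removed 0 genes. Alternatives were pseudocounts of 0.1 and 5, no filter, quantile normalization, array weights, replicate blocks, the compared libraries alone, adjustment over all genes the authors tested, the authors' own test and each library left out. In the contrasts with a 6 h group, and in D3 against D0, a pair of libraries was also left out. Same-numbered libraries were taken as paired where every correlation of deviations exceeded 0.1. On simulated data with 200 of 11220 genes changed in M5 against R5, the fit found 58% of the 2-fold and 91% of the 4-fold changes and made 6 false calls.

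The 3 genes and the marker lists were chosen with earlier results of these data known. Genes named from a list are up to 4 with the smallest adjusted p, and likeness names genes among the 5 highest correlations, of which 1 is not reported here. The 6 h time contrasts, the change of M over B and the ratios for B were added after the values were seen.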

Additional observations from a re-analysis of the deposited data

Results flagged for a closer look

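The M over B difference of Gata5 differed between days. It was 0.61 on day 5 and 4.89 on day 7 on the log2 scale, and the difference of those differences was 4.28 (SE 1.23, limma-trend, adjusted p = 0.019 over all genes). Gata5 was higher in M than in B in each of the 3 libraries on day 7, where groups did not overlap, while M5 and B5 overlapped. The test was added after the values were seen.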

How the results depend on the processing

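Of 816 values under other settings for the 87 tested results, 777 stayed on their side of the threshold. So did 570 of 609 values with libraries left out, mostly 1 at a time and otherwise as a pair. No called value changed sign, but 56 of these values had the sign opposite to the one reported and were called neither way. The cause of the changes was not tested. With array weights, calls were gained for Gata5 in B7 against R7 (1.71, adjusted p = 0.0049), Gata5 in D3 against D0 (-2.46, adjusted p = 0.00022), Gata4 in R4 against D3 (-0.93, adjusted p = 0.011), Gata5 in R4 against D3 (2.57, adjusted p = 3.8e-05), Gata6 in B5 against R4 (1.24, adjusted p = 0.037), Gata6 in M5 against M4 (1.66, adjusted p = 0.00053), Gata4 in M9 against M7 (-1.27, adjusted p = 0.029), Gata6 in R9 against R5 (-1.06, adjusted p = 0.021), Gata4 in R6hr against R4 (-0.72, adjusted p = 0.037), Gata5 in R6hr against R4 (1.42, adjusted p = 0.0092) and Gata4 in R5 against R6hr (0.98, adjusted p = 0.025) and for the change of the Gata5 B effect between days 5 and 9 (-3.14, adjusted p = 0.023), and lost for Gata6 in B5 against B6hr (0.92, adjusted p = 0.16). With the compared libraries alone, calls were lost for Gata6 in M4 against R4 (2.35, adjusted p = 0.051), Gata6 in D3 against D0 (-1.40, adjusted p = 0.12) and Gata6 in B5 against B6hr (1.67, adjusted p = 0.14) and gained for Gata5 in B7 against R7 (1.78, adjusted p = 0.015), Gata6 in M7 against M5 (-0.47, adjusted p = 0.038) and Gata6 in R9 against R5 (-1.03, adjusted p = 0.044). Adjustment over all genes the authors tested ended the calls of Gata6 in D3 against D0 (-1.40, adjusted p = 0.071), Gata4 in M5 against M4 (1.75, adjusted p = 0.071) and Gata6 in B5 against B6hr (1.67, adjusted p = 0.055). A pseudocount of 0.1 ended Gata6 in D3 against D0 (-1.40, adjusted p = 0.05) and Gata4 in M5 against M4 (1.75, adjusted p = 0.051), and a pseudocount of 5 the Gata5 over Gata4 ratio between M and B (1.22, adjusted p = 0.066). The authors' deposited table called Gata6 in B5 against R5 (1.64, adjusted p = 0.049) and did not call Gata6 in B5 against B6hr (1.39, adjusted p = 0.052). Without number 1 of both 6 h groups, chosen after seeing the data, Gata6 in B5 against B6hr was not called (0.80, adjusted p = 0.29).

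Labels share replicate numbers without saying that a number marks 1 differentiation. Same-numbered libraries correlated in all pairs only for B6hr with R6hr, B5 with M4 and M7 with M9. With the replicate block over all libraries, Gata6 in D3 against D0 (-1.40, adjusted p = 0.053) was not called. With the replicate block within the compared libraries, calls were gained for Gata5 in B6hr against R6hr (-1.05, adjusted p = 0.0021), Gata5 in B9 against R9 (1.40, adjusted p = 0.036), Gata6 in B5 against M4 (-0.87, adjusted p = 0.0008), Gata5 in M7 against M5 (-0.85, adjusted p = 0.0061), Gata6 in M7 against M5 (-0.47, adjusted p = 0.0028) and Gata4 in M9 against M7 (-1.07, adjusted p = 0.029) and lost for Gata6 in M4 against R4 (2.35, adjusted p = 0.054), Gata6 in B7 against R7 (1.80, adjusted p = 0.11), Gata6 in D3 against D0 (-1.40, adjusted p = 0.15), Gata6 in M4 against D3 (2.37, adjusted p = 0.12), Gata5 in B5 against B6hr (3.80, adjusted p = 0.12) and Gata6 in B5 against B6hr (1.67, adjusted p = 0.25). The block changed no other call of the 3 genes.

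Leaving out 1 library at a time ended or made the call of Gata6 in M4 against R4 (1.91 to 2.76), Gata4 in M5 against B5 (1.73 to 2.21), Gata6 in M5 against B5 (1.85 to 2.51), Gata6 in B7 against R7 (1.57 to 2.05), Gata6 in B9 against R9 (1.74 to 2.15), Gata4 in M9 against B9 (1.47 to 1.94), Gata6 in M9 against B9 (1.57 to 2.07), Gata6 in D3 against D0 (-2.05 to -0.996), Gata5 in R4 against D3 (1.18 to 2.52), Gata4 in M5 against M4 (1.65 to 1.92), Gata4 in R5 against R6hr (-0.12 to 1.69), Gata4 in B5 against B6hr (0.47 to 1.89) and Gata6 in B5 against B6hr (0.80 to 2.16). The same held for the day 7 to day 5 difference of Gata5 between M and B (4.00 to 4.72) and for the M against B ratios of Gata5 over Gata4 (1.22 to 1.47) and over Gata6 (1.14 to 1.41). Gata4 in R5 against R6hr and in B5 against B6hr was called without replicate 3 of R6hr and of B6hr. The number of genes called moved by over 1.5 times under some settings. In M4 against R4 it was 1586, 3914 with array weights and 364 with those libraries alone. In B5 against R5 it was 672, and 97 with those libraries alone. Depth is not known from the files and sets no interval here.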

Other observations

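Within groups, the 3 genes deviated from their group means together. Over 45 libraries in 15 groups the correlation of those deviations was 0.95 for Gata4 and Gata6, 0.65 for Gata4 and Gata5 and 0.64 for Gata5 and Gata6. These are descriptions without a test, since both genes of a pair are read from the same library. For each marker list, the log2 deviations of its genes were averaged within a library. The average of 15 BMP target genes went with the 3 genes as well, at 0.84 for Gata4, 0.86 for Gata5 and 0.85 for Gata6. The average of smooth muscle and mesenchyme genes went with Gata6 (0.80) and less with Gata5 (0.19), and that of mesothelium and epicardium genes likewise (0.75 and 0.23). Definitive and gut endoderm genes had values of -0.32, -0.22 and -0.31 with Gata4, Gata5 and Gata6, and primitive and visceral endoderm genes 0.58, 0.22 and 0.65 in the same order. Lists of other kinds also reached such values. Neuronal genes had 0.47, 0.12 and 0.64 and cardiomyocyte genes 0.54, -0.01 and 0.64. Gata6 with 1010001N08Rik had 0.82 and Gata5 with Gata5os 0.59.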
